A study of Mus musculus with 5 samples.

Results

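Beta-oxidation and ketone body enzymes were followed here in livers that overexpress Fra-1. The group holds 37 genes, of the 19752 genes named on the arrays: 21 of mitochondrial oxidation, 9 of peroxisomal oxidation, 4 long-chain acyl-CoA synthetases and 3 of ketone body metabolism. They are a list of gene names whose rule uses no measured value, and probes were assigned through the accession that the arrays give for each, looked up in RefSeq. All 37 had a probe, 46 probes in total, and the probe used for each gene was detected above background on each of the 5 arrays in both channels, so no gene was lost to the filter on dim probes.

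The Fra-1hep mice overexpress Fra-1, the product of Fosl1 and a subunit of the transcription factor AP-1, only in hepatocytes, on the C57BL/6J strain; the sources used here do not give the promoter behind this restriction. Both they and the C57BL/6J wild-type controls ate a high-fat diet (HFD, 45% of calories from fat) from 4 weeks of age, and their livers were taken at 26 to 28 weeks. RNA of 4 single Fra-1hep mice (Cy5) was set against 1 pool of 5 control mice (Cy3), and on 1 further array a Fra-1hep pool (Cy3) was set against the control pool (Cy5). Because the control RNA was pooled, the tests do not include the spread among control mice, except where it is said to be added. The sources used here do not say which mice made up the Fra-1hep pool, and its array carries as much weight in the fit as the 4 mice together.

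Fatty acids are oxidised after activation to acyl-CoA. Long chains enter mitochondria as carnitine esters and are shortened there by rounds of dehydrogenation, hydration, a further dehydrogenation and thiolysis, while peroxisomes shorten very long, branched and bile acid side chains and hand the products on. The liver turns much of the acetyl-CoA into ketone bodies for export, and many of these genes are known targets of the nuclear receptor PPAR alpha.

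Between 47.2% and 61.5% of non-control spots were well above background in a channel. All 11 hepatocyte markers on the array, Alb, Ttr and Cps1 among them, were detected in both channels of every array; 2 were higher and 1 lower, but their median was 0.49 to 0.63 in the single mice and -0.23 in the swapped pool. The swapped array stood apart: over all features its ratios correlated with those of the mice at 0.59 to 0.61, against 0.74 to 0.84 between mice, as a description over features. Mouse 1 was on a slide of its own and the other 4 arrays shared a slide, so leaving out mouse 1 is the comparison within a slide. The Fra-1hep channel of the Fosl1 probe was at background (not well above it) on all 5 arrays, and its control channel was above background on 1; its log2 ratios were -0.37, -0.23, 0.11 and 0.12 in the mice and -0.090 in the pool. It gave no check of the labels. Markers of other liver cells differed between the genotypes: macrophage markers were lower in 7 of 13 and higher in 0 cases, stellate cell and matrix genes lower in 8 of 9 and higher in 0, and neutrophil markers higher in 7 of 9 and lower in 0. Endothelial markers were lower in 4 of 8 (median -0.45) and lymphocyte markers in 3 of 7 (median -0.25), with 0 higher in either list, and cholangiocyte markers were higher in 1 of 6 and lower in 0. Over all features 15.4% were lower and 11.2% higher. In whole liver, fewer cells of a type and less RNA per cell cannot be told apart.

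Sequence was examined in the 300 bases of each promoter, 250 before and 50 after the start site, in RefSeq's GRCm38.p6 annotation. Windows were found for 31 of the 37 genes. The AP-1 motif TGANTCA, which reads alike on both strands, was present for 3 of these 31 genes, in 4 of their 34 windows (11.8%), beside 7.81% of all 32851 windows. The matches are shown because Fra-1 binds DNA as part of AP-1; capitals mark the motif, with 10 bases on either side.
Acadsb, chr7:131410369-131410395, plus strand: ccgccccccgTGACTCAcctcctgaca
Acadvl, chr11:70015396-70015422, minus strand: ttgtggagcaTGAGTCAgggcccagac
Acox2, chr14:8259014-8259040, minus strand: gcctggaagcTGAGTCAtgccagagtt
Acox2, chr14:8258804-8258830, minus strand, at its downstream start site: aggacagaggTGAGTCAagagtttagt

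None of these 3 genes passed the test described next: Acadsb lay at 0.098, Acadvl at 0.035 and Acox2 at -0.11 on the log2 scale. The PPAR response element, searched on both strands as a direct repeat (DR1) with the middle letter of each copy free, was found in 0 windows of the group and in 0.381% of all windows; its single copy AGGTCA was in 11.8% of the group's 34 windows and 16.3% of all windows. The CRE and the C/EBP palindrome were found in 0 windows of the group, and in 1.79% and 0.183% of all. No match in these windows says only that these letters are not there. For comparison, the 250 bases upstream of the start are given for the pair of genes that fell most, for Acaa1a, the close paralog of Acaa1b, and for the gene that rose most; capitals mark CCAAT on either strand, found in 15 of the 34 windows (44.1%), beside 37.4% of all windows. These 4 stretches and the CCAAT motif were chosen after the values and sequences were seen.
Crot, chr5:8997147-8997396, minus strand: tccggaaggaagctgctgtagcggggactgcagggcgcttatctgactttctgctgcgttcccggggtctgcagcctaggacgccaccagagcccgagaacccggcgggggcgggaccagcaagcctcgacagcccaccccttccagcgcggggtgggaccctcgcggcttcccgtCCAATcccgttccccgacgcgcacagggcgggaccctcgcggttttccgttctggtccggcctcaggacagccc
Acaa1b, chr9:119157094-119157343, minus strand: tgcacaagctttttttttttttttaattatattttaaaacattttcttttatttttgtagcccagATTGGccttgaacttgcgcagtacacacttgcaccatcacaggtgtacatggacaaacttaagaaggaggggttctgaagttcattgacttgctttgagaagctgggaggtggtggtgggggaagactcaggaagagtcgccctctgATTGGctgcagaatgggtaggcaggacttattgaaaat
Acaa1a, chr9:119341044-119341293, plus strand: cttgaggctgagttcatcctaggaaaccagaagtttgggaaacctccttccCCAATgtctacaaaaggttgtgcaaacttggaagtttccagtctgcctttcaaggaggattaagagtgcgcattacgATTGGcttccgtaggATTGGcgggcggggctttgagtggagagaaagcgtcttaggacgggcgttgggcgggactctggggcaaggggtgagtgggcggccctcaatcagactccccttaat
Acsl4, chrX:142390536-142390785, minus strand: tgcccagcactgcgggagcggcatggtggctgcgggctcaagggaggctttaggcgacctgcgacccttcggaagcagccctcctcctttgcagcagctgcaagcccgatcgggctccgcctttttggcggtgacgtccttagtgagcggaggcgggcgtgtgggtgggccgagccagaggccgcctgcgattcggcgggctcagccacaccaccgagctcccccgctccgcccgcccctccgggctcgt
The Crot and Acsl4 stretches were GC-rich (69.6% and 70.8% G or C, with 25 CpG each), those of Acaa1a (53.6%, 10 CpG) and Acaa1b (41.6%, 2 CpG) less so. The stretches of Crot, Acaa1a and Acaa1b held 1, 3 and 2 CCAAT matches and that of Acsl4 held 0.

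The comparison asks which of these enzymes differ at the RNA level when hepatocytes carry extra Fra-1 on a high-fat diet. Values are log2 ratios of Fra-1hep over control, so that 1 stands for 2-fold higher and -1 for 2-fold lower; the fitted change is given ± its standard error (SE), with the adjusted p of limma (Benjamini-Hochberg over all 21527 features tested) and a threshold of 0.05. Of the 37 genes, 17 were lower in Fra-1hep livers (45.9%), beside 15.4% of all features. A further 4 were higher (10.8%), beside 11.2% of all features. Among the 13540 features tested that carry a gene name, as the 37 do, the shares were 18.5% lower and 12.0% higher. The other 16 of the 37 did not pass. The changes were small in size, with a median absolute change of 0.24, but this was 0.13 over all features. Of the 37, only Crot was called and reached 2-fold, as did 1.85% of all features. The median fitted change of the 37 was -0.16, against -0.0034 over all features. Of the 21 called, 20 had the same sign on all 5 arrays, the exception being Etfa. The calls came from these same arrays, and all 5 share the control pool, so this agreement is partly built in. With the spread of a 5-mouse control pool added to the SE, on the assumption that control mice vary as the Fra-1hep mice do, 9 were lower and 2 higher. In that setting 1766 of all 21527 features were lower and 1087 higher.

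**Figure D1:**
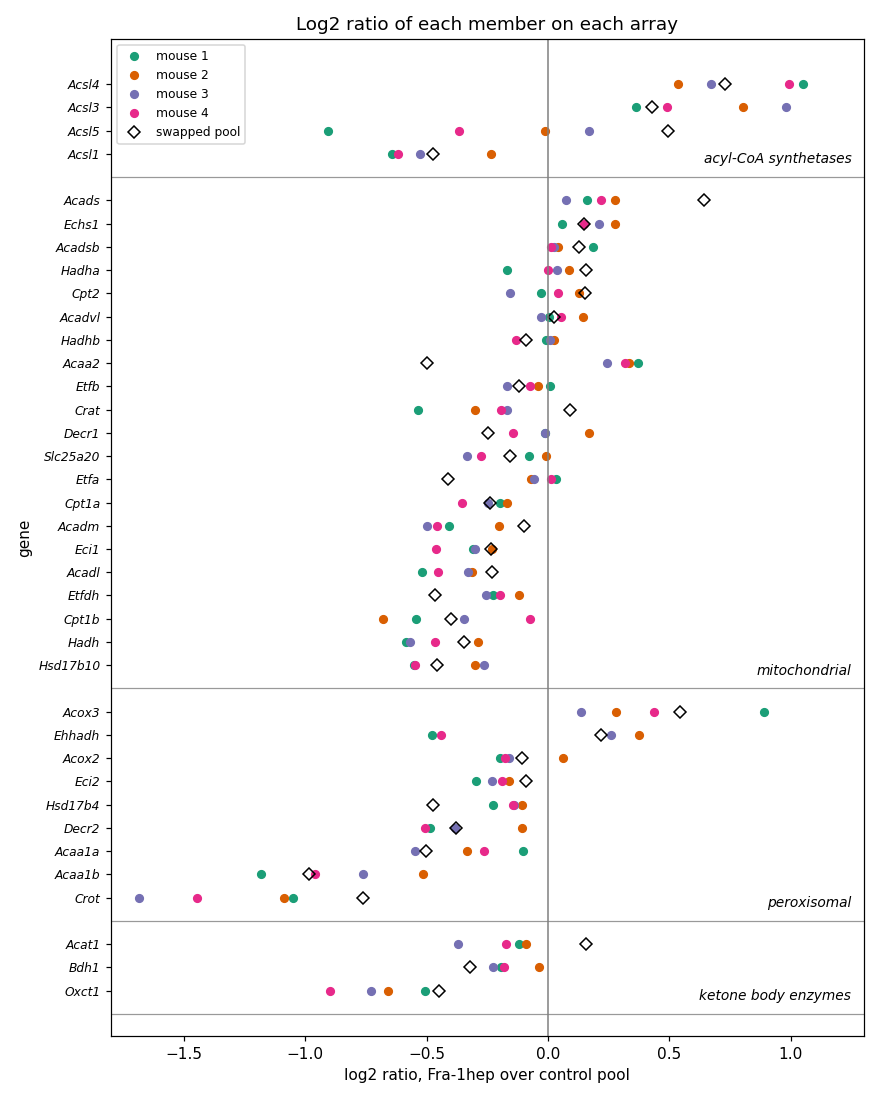
Log2 ratio of Fra-1hep over control (horizontal axis) for each of the 37 genes (vertical axis, by subgroup), with a filled point for each of the 4 mice and an open diamond for the dye-swapped pool. Crot and Acaa1b lie lowest and Acsl4 highest, while Ehhadh and Acsl5 have mice on both sides of 0.

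**Figure D2:**
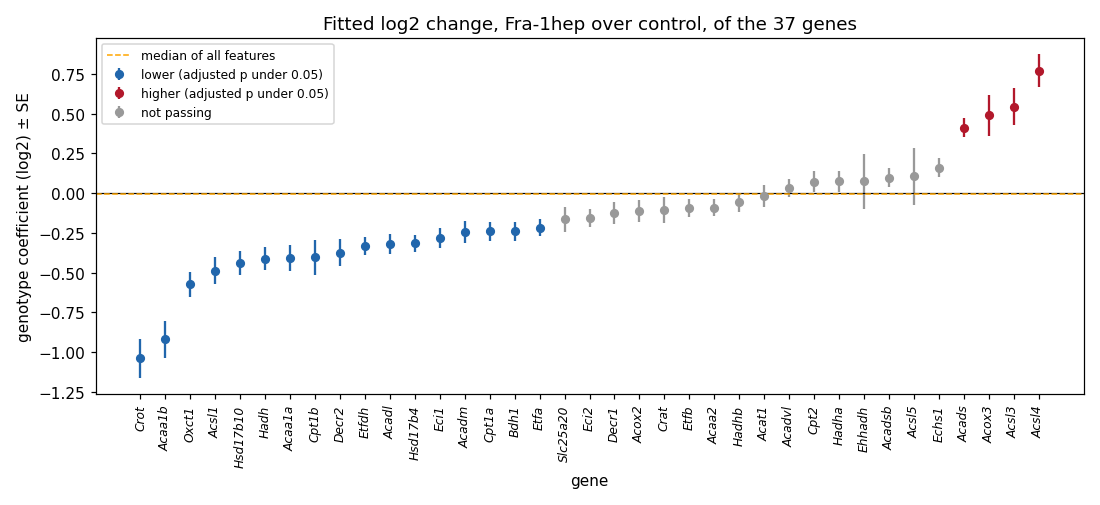
Fitted log2 change ± SE of the 37 genes in order of size; colours give the 17 genes called lower, the 4 called higher and the 16 that did not pass, and the dashed line is the median of all features (-0.0034). Crot lies lowest, at -1.04, and Acsl4 highest, at 0.77.

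The acyl-CoA synthetases, which activate long-chain fatty acids, went in opposite directions. Acsl4, the isoform that prefers arachidonate, had ratios of 1.05, 0.54, 0.67 and 0.99 in mice 1 to 4 and 0.73 in the pool. It was higher in every Fra-1hep sample, 1.71-fold in the fit (0.77 ± 0.10, adjusted p = 0.00286). Acsl3, which lies at the endoplasmic reticulum and on lipid droplets, had ratios of 0.36, 0.80, 0.98, 0.49 and 0.43 in the same order. It also rose on every array, with the widest values in mice 2 and 3 (0.54 ± 0.11, adjusted p = 0.015; adjusted p = 0.0545 with the control spread added). Acsl1, the main synthetase of liver and a known PPAR alpha target, stood at -0.64, -0.23, -0.53, -0.62 and -0.47. It fell to 0.713 of the control level (-0.49 ± 0.085, adjusted p = 0.00746), least in mouse 2. Acsl5, of mitochondria and endoplasmic reticulum, was -0.91, -0.013, 0.17 and -0.37 in the mice and 0.49 in the pool; these values spread across 0, with an SD of 0.47 among the mice that was the widest of the 37 genes, and it did not pass (0.11 ± 0.18, adjusted p = 0.701). No test compared the synthetases with each other.

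In the carnitine shuttle, Cpt1a and Cpt1b fell and the other 3 genes did not pass. Cpt1a, the liver form of the outer-membrane transferase that controls entry of long-chain acyl groups, had ratios of -0.20, -0.17, -0.25, -0.35 and -0.24. At its brightest probe the decrease was narrow and present on all 5 arrays, to 0.847 of control (-0.24 ± 0.059, adjusted p = 0.0243). The call ended with the control spread added (adjusted p = 0.0802), without mouse 3 (-0.24, adjusted p = 0.0565), under median centring (0.105) and with a background offset of 0 (0.055). The second probe of Cpt1a lay between -0.52 and -0.28 in the mice but at -0.034 in the pool (-0.19 ± 0.067). Cpt1b, its muscle form, gave -0.54, -0.68, -0.34, -0.074 and -0.40 at its brightest probe, where the fall was nearly absent in mouse 4. Its fitted change was -0.40 ± 0.11 (adjusted p = 0.0339, and 0.104 with the control spread added). Its call also ended without mouse 1 (-0.38, adjusted p = 0.0559) and without mouse 3 (-0.42, adjusted p = 0.0604). Its size depended on the signals used: an offset of 0 gave -0.68 (adjusted p = 0.0644) and the processed signals -0.96 (adjusted p = 0.0439). Its second probe gave -0.53 ± 0.075 and stood at -0.64 in mouse 4, so the probes disagreed on that mouse. Of 9 skeletal muscle markers, 7 were not well above background in either channel on any array, the myosin genes Myh1 and Myh4 and the creatine kinase gene Ckm among them, and none of the 9 passed the filter. Of 8 adipocyte markers, 5 (Adipoq, Lep, Retn, Plin1 and Ucp1) were not well above background on any array. Lipe and Slc2a4 were detected in both channels of all arrays and did not pass the test, and Cfd was detected in control RNA on 5 arrays and in Fra-1hep RNA on 0.
Cpt2, the transferase that restores acyl-CoA inside the mitochondrion, lay at 0.073 ± 0.067 and Slc25a20, the carrier of acylcarnitines, at -0.17 ± 0.076 (adjusted p = 0.459 and 0.152). The second probe of Cpt2 gave 0.29 ± 0.062. Crat, which acts on short acyl groups, was below 0 in all 4 mice (-0.53, -0.30, -0.17, -0.19) and at 0.089 in the pool, and did not pass (adjusted p = 0.368; 0.0169 in the 4 mice alone).

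The acyl-CoA dehydrogenases take the first step of each round and differ in the chain length they prefer. Acadl, for long chains, had ratios of -0.52, -0.31, -0.33, -0.45 and -0.23, all below control (-0.32 ± 0.062, adjusted p = 0.0114). Acadm, for medium chains, had -0.41, -0.20, -0.50, -0.46 and -0.097. It fell on every array but least in the pool (-0.24 ± 0.070, adjusted p = 0.0416; mean of the mice -0.39). Its call ended in 8 of 14 alternatives, some of which overlap. Without mouse 1, 3 or 4 the values were -0.24, -0.23 and -0.23 (adjusted p = 0.0639, 0.0836 and 0.0863), and with the control spread added the adjusted p was 0.121. Acads, for short chains, went the other way, with 0.16, 0.28, 0.074, 0.22 and 0.64. It was higher on all arrays, but the pool lay well above the mice (0.41 ± 0.060, adjusted p = 0.00384), and the 4 mice alone gave 0.18 (adjusted p = 0.0351). Acadvl, for very long chains, at 0.035 ± 0.057, and Acadsb, which also works in isoleucine breakdown, at 0.098 ± 0.059, did not pass (adjusted p = 0.694 and 0.261).

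Electrons from these enzymes pass through the flavoprotein ETF, of subunits Etfa and Etfb, to ETF dehydrogenase (Etfdh) and so to the respiratory chain. Etfdh had ratios of -0.23, -0.12, -0.25, -0.20 and -0.47 and fell on all arrays (-0.33 ± 0.055, adjusted p = 0.00625). The mice alone averaged -0.20 ± 0.058 (SD, n = 4; adjusted p = 0.0194). Etfa was called lower (-0.22 ± 0.054, adjusted p = 0.0263), but its mice stood at 0.034, -0.070, -0.059 and 0.012 and only the pool at -0.41: without the swapped array the value was -0.021 (adjusted p = 0.767), and its second probe gave 0.042. The call also ended without mouse 3 (-0.21, adjusted p = 0.0638), without mouse 4 (-0.22, adjusted p = 0.0529) and with the control spread added (0.0854). Etfb, at -0.094 ± 0.057, did not pass (adjusted p = 0.269).

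Of the enzymes that complete each round, Hadh and Hsd17b10 fell. Hadh, the short-chain hydroxyacyl-CoA dehydrogenase, had ratios of -0.58, -0.29, -0.57, -0.47 and -0.34 (-0.41 ± 0.071, adjusted p = 0.00724). Hsd17b10, a dehydrogenase that also takes part in isoleucine breakdown and mitochondrial tRNA processing, had -0.55, -0.30, -0.26, -0.55 and -0.46 (-0.44 ± 0.076, adjusted p = 0.00738). Both were below control in every sample and stood at 0.752 and 0.739 of the control level. The subunits of the trifunctional protein, which carries the 3 last steps for long chains, did not pass: Hadha lay at 0.074 ± 0.065 and Hadhb at -0.058 ± 0.057. The hydratase Echs1, at 0.16 ± 0.061, also did not pass (adjusted p = 0.0933), although it was above 0 on all 5 arrays and passed in the mice alone (0.17, adjusted p = 0.0449) and with no dye term (0.17, adjusted p = 0.0495). The thiolase Acaa2 split by dye orientation. It was 0.37, 0.34, 0.24 and 0.32 in the mice and -0.50 in the pool, which left a fitted change of -0.090 ± 0.054 (adjusted p = 0.26) beside 0.32 in the mice alone (adjusted p = 0.00311).
Eci1 and Decr1 prepare unsaturated chains for the cycle. Eci1 fell, with -0.31, -0.23, -0.30, -0.46 and -0.23 (-0.28 ± 0.062, adjusted p = 0.0178; 0.0625 with the control spread added and 0.0695 under median centring), and Decr1 did not pass (-0.12 ± 0.069).

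**Figure D3:**
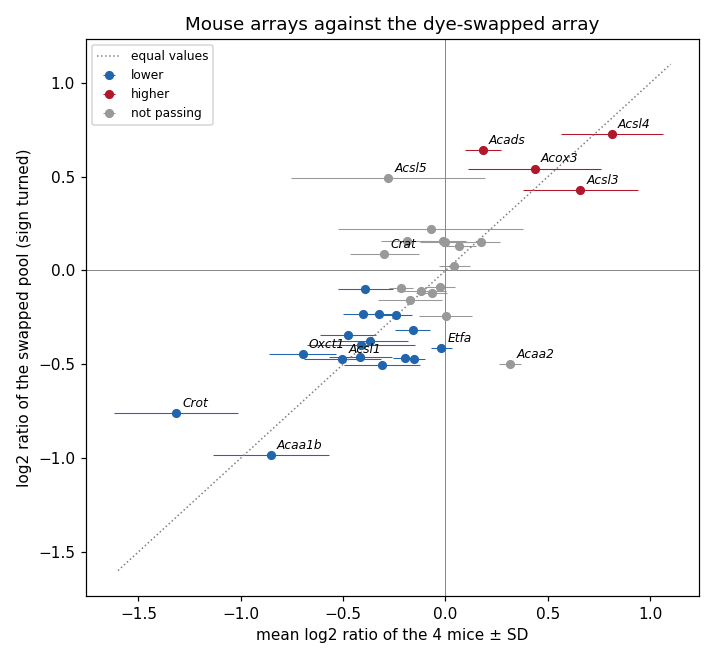
Mean log2 ratio of the 4 mice ± SD (horizontal axis) against the log2 ratio of the dye-swapped pool (vertical axis) for the 37 genes; the dotted line marks equal values. Acaa2 and Etfa lie below the line and Acads and Acsl5 above it, while Crot, at -1.32 in the mice and -0.76 in the pool, is low on both axes.

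The largest decreases were peroxisomal. Crot, the octanoyltransferase that exports shortened chains from peroxisomes as carnitine esters, had ratios of -1.05, -1.09, -1.68 and -1.45 in mice 1 to 4 and -0.76 in the pool. Every sample lay below control, the pool least, and the fit gave a level 2.05-fold lower (-1.04 ± 0.12, adjusted p = 0.00171). Acaa1b, a thiolase of the peroxisomal cycle, had -1.18, -0.51, -0.76, -0.96 and -0.98 and was 1.89-fold lower (-0.92 ± 0.12, adjusted p = 0.00219). Its paralog Acaa1a had -0.10, -0.33, -0.55, -0.26 and -0.50 (-0.41 ± 0.084, adjusted p = 0.014; 0.0515 with the control spread added). The order of the mice differed between the paralogs, mouse 1 being lowest for Acaa1b and nearest to control for Acaa1a. Transcripts of these paralogs resemble each other, and how far a probe reads both was not tested.
Hsd17b4, the multifunctional protein for branched and bile acid chains, had -0.23, -0.11, -0.14, -0.14 and -0.47 and fell (-0.31 ± 0.054, adjusted p = 0.00715), although the mice alone averaged -0.15 (adjusted p = 0.0446). Ehhadh, the multifunctional protein for straight chains and a known PPAR alpha target, was -0.48 and -0.44 in mice 1 and 4, 0.37 and 0.26 in mice 2 and 3 and 0.22 in the pool, on both sides of 0 (0.074 ± 0.17, adjusted p = 0.786). No test compared it with Hsd17b4.
Decr2, the peroxisomal dienoyl-CoA reductase, fell, with -0.48, -0.11, -0.38, -0.51 and -0.38 (-0.37 ± 0.084, adjusted p = 0.0186; 0.0648 with the control spread added). Acox3, an oxidase of branched chains, rose on every array, with 0.89, 0.28, 0.14, 0.44 and 0.54, most in mouse 1 (0.49 ± 0.13, adjusted p = 0.0321; 0.0995 with the control spread added). The call was lost without mouse 4 (0.49, adjusted p = 0.0671), with an offset of 0 (0.0579) and with the processed signals (0.0583), and its second probe gave 0.30 ± 0.082. Acox2, the oxidase of bile acid side chains, at -0.11 ± 0.067, and the isomerase Eci2, at -0.16 ± 0.055, did not pass (adjusted p = 0.256 and 0.079). Eci2 was below 0 on all 5 arrays and passed in the mice alone (-0.22, adjusted p = 0.0137) and with no dye term (-0.19, adjusted p = 0.0289).

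Among ketone body enzymes, Oxct1 showed the widest change. This transferase lets tissues use ketone bodies and is scarce in hepatocytes. Its ratios were -0.50, -0.66, -0.73, -0.90 and -0.45, all below control, and it was 1.49-fold lower (-0.57 ± 0.078, adjusted p = 0.00305). Macrophage markers had a median of -0.70, with medians from -0.95 to -0.31 in single mice. Of these 13 markers 6 did not pass. Clec4f (0.069), Vsig4 (0.052) and Timd4 (0.13) lay above 0, and Csf1r (-0.54), Marco (-0.78) and Lyz2 (-0.36) below it. Stellate cell and matrix genes had a median of -1.07 (-1.25 to -0.84 in single mice), and endothelial markers one of -0.45 (-0.62 to -0.13). Lymphocyte markers had a median of -0.25, cholangiocyte markers 0.14 and neutrophil markers 2.17. The part of these cells in the fall of Oxct1 was not tested. Bdh1, which makes beta-hydroxybutyrate, had -0.19, -0.038, -0.23, -0.18 and -0.32 at its brightest probe and was called lower (-0.24 ± 0.059, adjusted p = 0.0253). The call ended with the control spread added (adjusted p = 0.0828), in the mice alone (-0.16, adjusted p = 0.0521), without mouse 3 (-0.23, adjusted p = 0.0597) and without mouse 4 (-0.24, adjusted p = 0.058). In all it ended in 9 of 14 alternatives, some of which overlap. Its probes disagreed: the second gave -0.17 ± 0.052 and the third 0.17 ± 0.068, with all 4 mice between 0.18 and 0.48, and the mean of the probes was -0.081 (adjusted p = 0.305). Acat1, the thiolase that condenses acetyl-CoA, was below 0 in the 4 mice (-0.12, -0.090, -0.37, -0.17) and at 0.16 in the pool, and did not pass (-0.017 ± 0.069, adjusted p = 0.886).

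**Figure D4:**
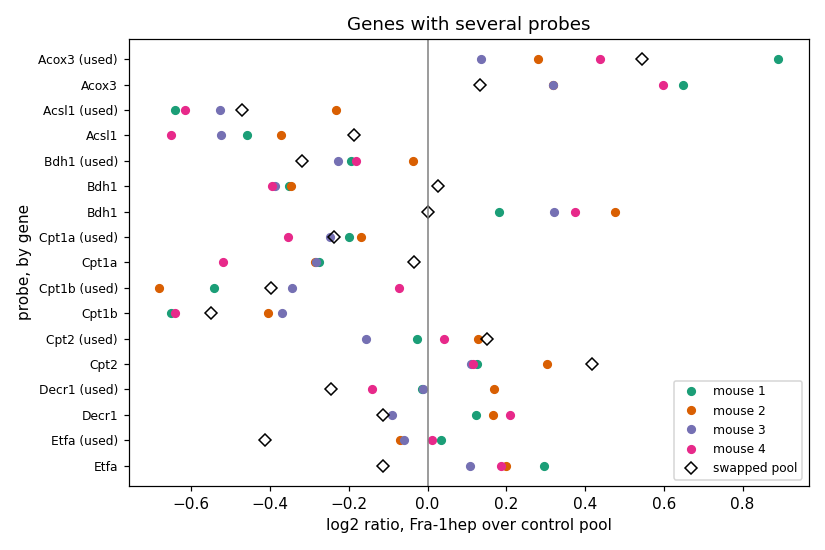
Log2 ratio of Fra-1hep over control (horizontal axis) for every probe of the 8 genes that had more than 1 (vertical axis; "used" marks the brightest, which stood for the gene), with points for the 4 mice and a diamond for the swapped pool. The probes of Acsl1, Cpt1a and Cpt1b lie on the same side of 0, and those of Bdh1 on both sides.

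By subgroup, mitochondrial oxidation had 9 of 21 genes lower (42.9%), 1 higher (4.76%) and 11 not passing, with a median of -0.12. Peroxisomal oxidation had 5 of 9 lower (55.6%), 1 higher (11.1%) and 3 not passing, with a median of -0.31. For the 3 ketone body genes the counts were 2 lower and 1 not passing (median -0.24). For the 4 synthetases they were 1 lower, 2 higher and 1 not passing (median 0.33). Beside these counts stand 15.4% lower and 11.2% higher over all features. The peroxisomal median was below the mitochondrial median on all 5 arrays, by 0.064 to 0.22, with a gap of 0.19 in the fit. These gaps are descriptions over genes of the same samples and were not tested. In single mice the mitochondrial median ran from -0.17 to -0.040 and the peroxisomal from -0.30 to -0.11, so the ranges of the mice overlapped. The synthetase median ranged from -0.14 to 0.42, on both sides of 0.

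**Figure D5:**
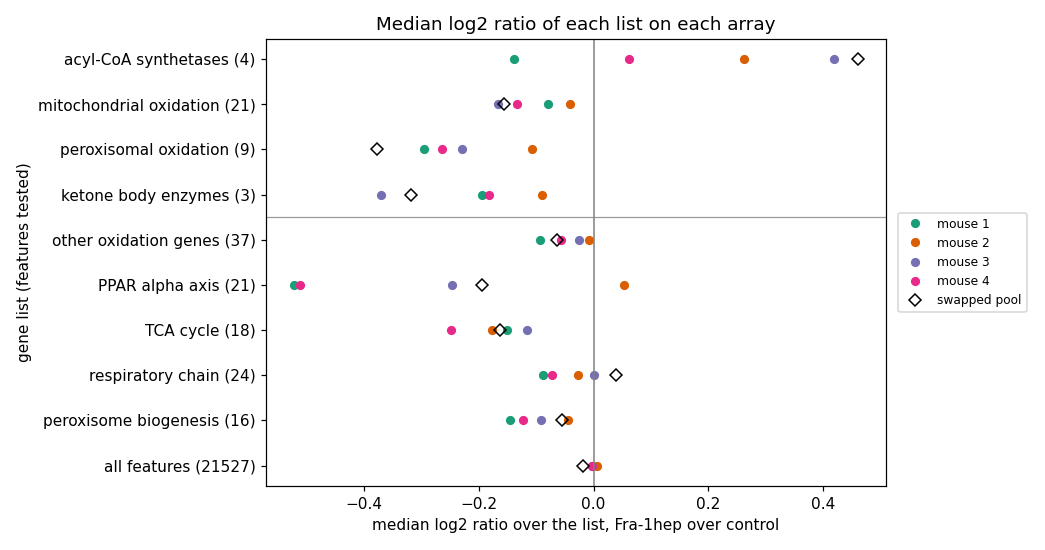
Median log2 ratio of Fra-1hep over control (horizontal axis) on each array for the 4 subgroups, above the line, and for other gene lists and all features, below it; points are mice and the diamond is the swapped pool. The peroxisomal median lies left of the mitochondrial median on every array, and the medians of all features lie close to 0.

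Other genes of these pathways formed a separate list. Of 37 tested, 10 were lower (27.0%, beside 15.4% of all features), 5 higher (13.5%, beside 11.2%) and 22 did not pass (median -0.047). Without the swapped array 15 were lower and 10 higher. Over all features the counts also rose there, from 3322 to 4080 lower and from 2406 to 3643 higher. Slc22a5, the carnitine importer of the plasma membrane, fell, with ratios from -0.66 to -0.38 on the 5 arrays (-0.57 ± 0.062, adjusted p = 0.00129). The acyl-CoA dehydrogenase Acad12 lay between -0.97 and -0.81 at its brightest probe (-0.86 ± 0.053, adjusted p = 0.000118), but its probes disagreed, and their mean gave -0.33 (adjusted p = 0.00444). Abcd2, which imports very long chains into peroxisomes, was detected above background on all 5 arrays in control RNA and on 0 in Fra-1hep RNA. Its level was at least 2.32-fold lower; it was tested only because control RNA carried it past the filter, so its adjusted p of 0.00172 supports nothing further. For this bound the mean control level was divided by a floor for Fra-1hep RNA, which on each array was the dimmest detected probe, or the gene's own level where that was higher, and it is open to dye bias.

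The PPAR alpha axis list held 21 genes: the receptor, its partners and known targets. Of these, 8 were lower (38.1%, beside 15.4% of all features), 0 higher (beside 11.2%) and 13 not passing (median -0.24). Aldh3a2, a fatty aldehyde dehydrogenase, had ratios from -1.17 to -1.02 (-1.13 ± 0.055, adjusted p = 4.98e-05). Plin2, a lipid droplet coat protein, fell by 1.34 ± 0.084 on the log2 scale. Cyp4a14, a fatty acid omega-hydroxylase, ranged from -6.69 in mouse 4 to -4.57 in mouse 2, and members of its family resemble each other, so its value is uncertain. Fabp1, which carries fatty acids in the cytosol, stood between -1.37 and -0.67 in the mice and at -2.53 in the pool. Without the swapped array 3 genes of this list were higher, beside 3643 of all 21531 features.

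The rest of the mitochondrion and the peroxisome was read from further lists. In the TCA cycle 7 of 18 genes were lower (38.9%, beside 15.4% of all features), 0 higher (beside 11.2%) and 11 not passing (median -0.15). Idh2 lay at -0.52 ± 0.060 (adjusted p = 0.00168) and the citrate synthase gene Cs at -0.43 ± 0.064 (adjusted p = 0.00419). The count of lower TCA genes was 2 with the control spread added, 3 under median centring and 4 with an offset of 0. Over all 21527 features the lower counts in these settings were 1766, 2936 and 2771. Of 24 genes of the respiratory chain, 3 were lower (12.5%), 2 higher (8.33%) and 19 not passing (median -0.017), near the shares over all features, with cytochrome c, Cycs, at -0.31 ± 0.061 (mean of the mice -0.53). Of these genes 7 were lower without the swapped array, where 4080 of 21531 features were lower. Under median centring or with the control spread added, 1 was lower and 1 higher. Over all 21527 features these 2 settings gave 2936 and 1766 lower, and 1408 and 1087 higher. Of 16 peroxisome biogenesis genes, 4 were lower (25.0%, beside 15.4% of all features), 1 higher (6.25%, beside 11.2%) and 11 not passing (median -0.071). The 1 higher call was lost under median centring, with the mean of probes, with no dye term, without the swapped array, mouse 3 or mouse 4, and with the control spread added. Pex11a, which acts in peroxisome division, had ratios from -1.75 to -1.21 and was 2.82-fold lower (-1.50 ± 0.099, adjusted p = 0.000148), and Pex3, of membrane assembly, lay at -0.37 ± 0.051 (adjusted p = 0.00341). No test compared these lists with the 37 genes.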

How the data were processed

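Liver RNA was hybridised to 5 Agilent 2-colour arrays of 62976 spots. Per the file headers, the deposited scanner files hold spot intensities and 0 or 1 flags (other) from Agilent Feature Extraction (10.7.3.1; 10.7 per the submitters' processing notes), with processed signals and a log10 ratio of Cy5 over Cy3. The authors' deposited series table holds log2 ratios: against the scanner ratios its slopes were 1.00 (mice) and -1.00 (swapped array), so every column is Fra-1hep over control, and its column medians of 0.13, 0.084, 0.044, 0.13 and -0.042 are not 0. Other steps and the genome build are not given in the sources used here.

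Median signals were background-corrected (normexp, offset 50) and loess-normalized; 177 outlier spots were left out and 0 were saturated. Probes were named by accession through RefSeq (GRCm38.p6; 26056 of 55681 probes, 19752 genes). A probe was kept if 3 or more arrays had it above background in 1 channel or both, and the brightest stood for its gene. limma 3.58.1 (R 4.3.3; lmFit, eBayes) fitted genotype and a dye term, with 3 residual and 4.02 prior degrees of freedom; the swapped array weighs as much as the 4 mice together and has no residual of its own, so a dye effect cannot be told apart from a deviation of the pool. Control RNA from the pool is 1 sample. The number of arrays limits precision (median SE 0.066). The fit was tested on simulated data with 200 changed features among 21531 (all that were kept, 4 of which had no p in the data). Of changes of 1 (log2) 91% were recovered, and of changes of 0.5 51%, with 6 false calls. Simulated noise was independent between arrays, with no error shared through the control pool and no deviation of the swapped pool. The 6 therefore say little about false calls in the data.

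Members, lists and motifs were chosen with earlier results of these data known. All 37 genes are reported, and of each other list up to 4 genes with the smallest p were open to naming; marker genes are given by list, with some named as examples. Some genes open to naming are not reported here. Set tests were not run. The 14 alternatives covered signals, offset, centring, filter, probe choice, dye term, each array left out and the control spread.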

Additional observations from a re-analysis of the deposited data

Results flagged for a closer look

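In 2 of the 37 genes, 1 mouse stood apart from the other 3 by Dixon's gap test; chance alone singles out about 1 in 20 groups. Acadsb was 0.19 in mouse 1, against 0.014 to 0.040 in the others, and Acox2 was 0.061 in mouse 2, against -0.20 to -0.16 in the others.

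In 3 genes the mice all lay on one side of 0 and the dye-swapped pool on the other: Crat (0.089 in the pool), Acaa2 (-0.50) and Acat1 (0.16). The difference between the mice and the pool was not tested.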

How the results depend on the processing

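Across 14 alternatives, 11 of the 21 called genes kept their call and direction in each: Crot, Acaa1b, Oxct1, Acsl1, Hsd17b10, Hadh, Etfdh, Acadl and Hsd17b4 (lower), and Acsl4 and Acads (higher). The alternatives are not all separate checks. Changing the filter left the fitted values of the members as they were, and the deposited values nearly repeated the processed signals. Leaving out 1 mouse gave 12 to 17 lower and 3 to 4 higher members, and 2580 to 3274 lower and 1714 to 2318 higher features; subgroup medians ran from -0.15 to -0.12 (mitochondrial), -0.32 to -0.30 (peroxisomal), -0.26 to -0.23 (ketone) and 0.26 to 0.40 (synthetases). With the control spread added, 9 members were lower and 2 higher, and 1766 features lower and 1087 higher. The features higher numbered 1408 under median centring and 3643 without the swapped array. The peroxisomal median was -0.22 without the swapped array and -0.22 with its sign turned and the dye term left out; without it the mitochondrial and synthetase medians were -0.068 and 0.19, and the ketone median -0.081 with the mean of all probes. Acaa2 turned to 0.32 without the swapped array, and Crat, Echs1 and Eci2 passed there. The pool-spread setting adds variance and leaving out an array removes samples; otherwise the cause was not tested. Leaving out mouse 1 is also the fit within a slide. No paired analysis was possible because the controls are 1 pool, so no control sample carries a replicate number.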

Other observations

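The 4 Fra-1hep mice differed in how far these genes lay from control. Mouse 2 had the highest ratio of the 4 mice in 23 of the 37 genes and the lowest in 3. Mouse 1 had the lowest in 14 and the highest in 9, mouse 3 the lowest in 13 and the highest in 4, and mouse 4 the lowest in 7 and the highest in 1. No such count over all features is given, so these ranks cannot be read as a trait of these genes. Mouse 1 was also on a slide of its own. The PPAR alpha axis varied among the mice too: its median was -0.52 in mouse 1, 0.053 in mouse 2, -0.25 in mouse 3 and -0.51 in mouse 4. Ehhadh, Acsl5 and Cyp4a14, picked after their values were seen, were each lower in mice 1 and 4 than in mice 2 and 3. The median of 9 neutrophil markers was also highest in mouse 2, at 3.07, against 1.46 to 1.78 in the others; its part in these differences was not tested. With 4 mice, no correlation was computed.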
